A study of Arabidopsis thaliana with 6 samples.

Results

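The genes described here are the cytochrome P450 genes that the probe table names by a full family symbol, CYP with a family number, subfamily letters and a gene number. The rule found 22 genes, each with 1 probe set, among 22746 probe sets tested and 13356 genes with a name. The gene table of the TAIR10.1 assembly holds 225 such symbols, so 9.78% of them were measured and named. Of the 22, 18 belong to subfamily CYP71B, of which the gene table lists 35 genes. The other 4 are the single members of families CYP51, CYP78, CYP79 and CYP84 named under the rule. Throughout, a measured gene is one that has a probe set with 1 gene name. A further 8730 probe sets have no gene name and 503 have several, and any P450 genes found only there were not counted. Well-known Arabidopsis P450 genes, among them CYP79B2, CYP83B1 and CYP71B15, were not analysed here. The rule uses gene symbols and no measured value, though the choice of this family was made with earlier results of these data known.

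Leaf RNA of 15-day-old seedlings was hybridised to 6 single-colour Affymetrix ATH1 arrays, 3 of the chr11-1 chr17-1 double mutant and 3 of the wild type Col-0. The mutant carries the chr11-1 and chr17-1 alleles together; the affected genes, CHR11 and CHR17, code for nucleosome-remodelling ATPases of the ISWI class. Both genotypes received no treatment and were grown at 21 °C with 16 h of light and 8 h of dark. The labels do not say whether arrays of a genotype came from separate plants, so p-values measure only how these samples scatter, possibly for technical reasons. What kind of alleles they are, and where they lie, is not given in the sources used here.

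Cytochrome P450s are haem enzymes, most of them anchored in the endoplasmic reticulum, that take electrons from a P450 reductase and insert an oxygen atom from molecular oxygen into small molecules. In plants the superfamily has expanded greatly, and its members make or break down lignin precursors, glucosinolates, sterols, surface lipids and hormones. Members of a subfamily often lie side by side in the genome as tandem copies, and CYP71B is a large subfamily of this kind in Arabidopsis. Its best-known enzyme, CYP71B15 (PAD3), completes the synthesis of the antimicrobial compound camalexin, whereas the substrates of many CYP71B enzymes are not established.

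Signals are deposited log2 values, with array medians of 4.73 to 4.77. Pearson's r over probe sets (not independent of each other) was 0.993 to 0.996 within genotypes and 0.970 to 0.972 between them. CHR17 had 5.12 ± 0.21 in the mutant and 4.78 ± 0.18 in Col-0 (SD, n = 3; limma Benjamini-Hochberg adjusted p = 0.0832), and since the place of its probes relative to the allele is not known here, it does not check the labels. CHR11 was not analysed here. The 25S ribosomal RNA control stood apart in mutant replicate 1, with 8.90 against 10.85 in both other mutant arrays and 10.32 to 10.49 in Col-0, and results without that array are given below. The 4 measured leaf markers, LHCB4.1, LHCB4.2, LHCB4.3 and RCA, had signals at or above the 93.8th percentile of all probe sets. Their summed log2 signal was 49.0 to 49.7 in the mutant and 51.0 to 51.2 in Col-0; LHCB4.3 fell by 1.93 and LHCB4.2 rose by 0.54 on the log2 scale, and LHCB4.1 and RCA did not pass. The 5 measured markers of root hair, anther and meristem lay at or below the 39.4th percentile, their sums were 18.9 to 19.5 in the mutant and 19.0 to 19.8 in Col-0, and none of the 5 passed limma. The actin 3' minus 5' signal was 3.02 ± 0.07 in the mutant and 3.22 ± 0.06 in Col-0 (SD, n = 3; two-sided exact permutation p = 0.1, the smallest that 3 against 3 allow). The part of leaf makeup and RNA quality in the P450 results was not tested. In these bulk samples fewer cells of a type and less RNA per cell cannot be told apart.

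Among the 22 P450 genes, 4 rose and 5 fell in the chr11-1 chr17-1 mutant. CYP84A4 and CYP71B36 rose about as strongly, 3.17-fold and 3.10-fold, and CYP71B26 and CYP71B23 rose 2.30-fold and 2.08-fold. CYP71B6 fell 2.02-fold, and CYP71B22, CYP71B29, CYP71B28 and CYP71B5 fell by less, 1.52-fold to 1.29-fold. The test was limma's moderated test with Benjamini-Hochberg adjustment over all probe sets, called at an adjusted p below 0.05. The changed genes were 40.9% of the 22, beside 28.6% of all probe sets in the same fit. By direction, 18.2% were higher beside 14.0% of all probe sets, and 22.7% were lower beside 14.7%.

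At least 2-fold changes were 4 rises, beside 2.74% of all probe sets, and 1 fall, beside 2.28%. The 3 mutant arrays lay wholly on 1 side of the 3 Col-0 arrays in 9 of 22 genes (40.9%), beside 39.5% of all probe sets, and these were the 9 that passed. The median log2 difference, mutant minus Col-0, was 0.02 over the 22 and -0.0028 over all probe sets. The median absolute difference was 0.13 over the 22 and 0.15 over all probe sets. The 22 genes thus held changes in both directions around a middle close to 0, but 8 of them were among the lowest 30% of probe sets by mean signal. Without those 8 the median log2 difference was -0.055 over the remaining 14 genes and -0.22 over the remaining 12 CYP71B genes. Of the 14, 9 passed, beside 40.2% of all probe sets outside the lowest 30%. Without mutant replicate 1 the counts over the 22 genes were 4 higher and 5 lower, with CYP71B34 passing and CYP71B5 no longer passing.

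**Figure D1:**
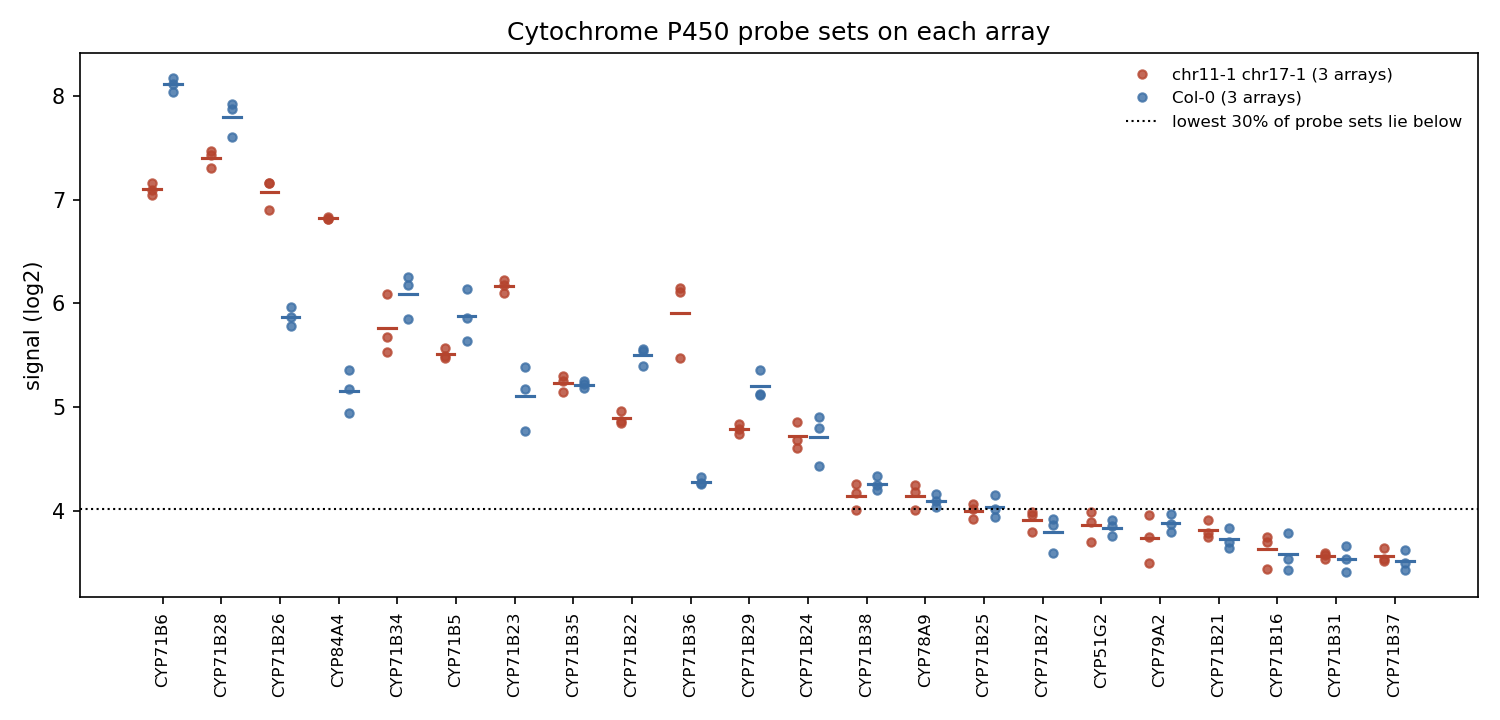
Signal (log2) of the 22 P450 genes on each array, ordered by mean signal; points are arrays, short lines are means of 3 arrays, mutant left and Col-0 right of each pair, and the dotted line is the signal below which the lowest 30% of probe sets lie (4.02). CYP71B36 and CYP84A4 show the widest gaps between the genotypes, and the 8 dimmest genes overlap throughout.

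**Figure D2:**
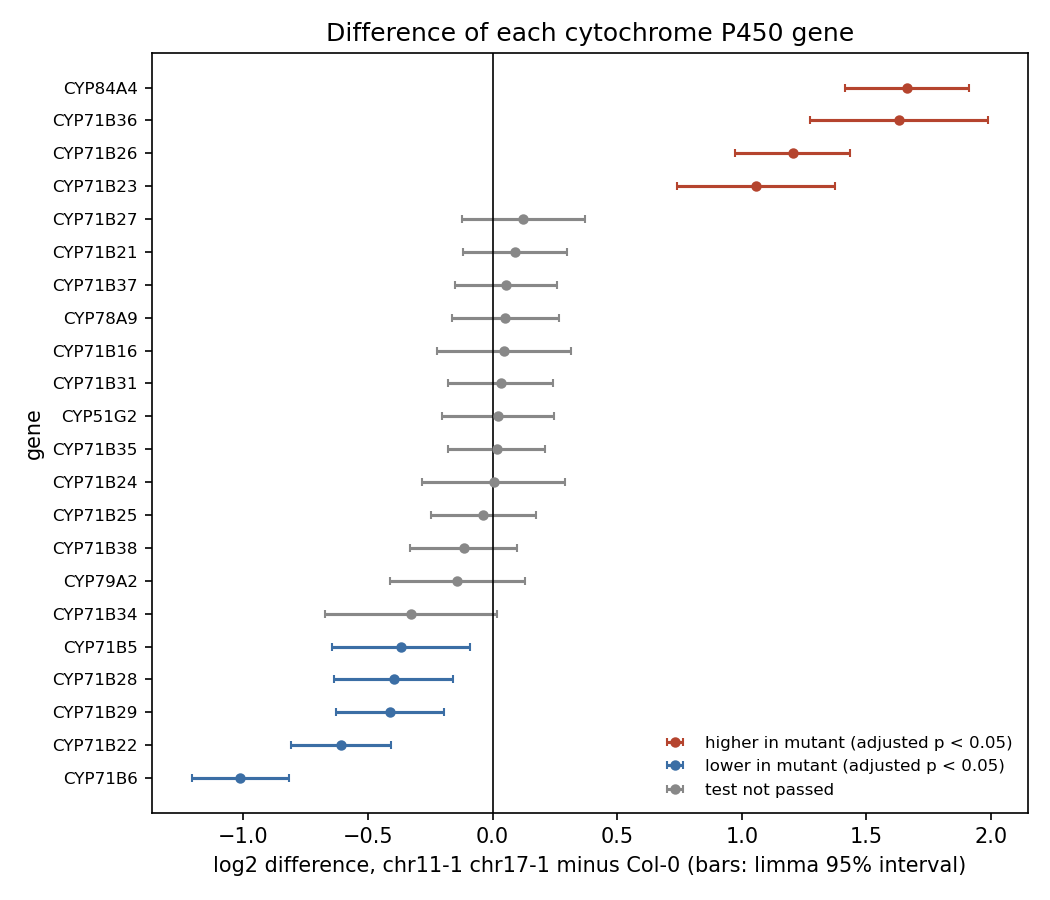
Log2 difference, mutant minus Col-0, of each P450 gene with limma's 95% interval (bars); colours mark genes that passed the test. The 4 rises lie between 1.06 and 1.66, the 5 falls between -1.01 and -0.37, and the 13 other genes between -0.33 and 0.12.

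Of the P450s outside CYP71B, CYP84A4 (AT5G04330) changed. It is a relative of the lignin enzyme ferulate 5-hydroxylase and takes part in the synthesis of arabidopyrones, pyrone compounds made from phenylpropanoids. Its log2 signal was 6.82, 6.82 and 6.83 in the mutant arrays, against 4.94, 5.18 and 5.36 in the Col-0 arrays. The mutant arrays were nearly identical and all lay above the highest Col-0 array. The log2 difference was 1.66 (SE 0.11, limma adjusted p = 2.68e-06), higher in 3 of 3 mutant arrays.

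The other single-member families did not pass. CYP79A2 (AT5G05260) converts phenylalanine to its aldoxime for benzylglucosinolate, and it had 3.74 ± 0.23 in the mutant and 3.88 ± 0.09 in Col-0. CYP51G2 (AT2G17330) is a relative of the sterol 14-demethylase CYP51G1, with 3.86 ± 0.15 in the mutant and 3.84 ± 0.08 in Col-0. CYP78A9 (AT3G61880), of the subfamily of the organ growth gene KLUH and known for promoting fruit and seed growth, had 4.15 ± 0.13 in the mutant and 4.095 ± 0.061 in Col-0 (SD, n = 3 each). These 3 signals lay at or below the 34.5th percentile of all probe sets, so the arrays give little information on their transcripts. With 1 measured member each, these families have no summary of their own.

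In CYP71B, 3 of 18 genes rose (16.7%, beside 14.0% of all probe sets) and 5 fell (27.8%, beside 14.7%), and 10 did not pass. The median log2 difference of the subfamily was 0.01 and its range -1.01 to 1.63. Of the 4 genes of other families 1 rose and none fell under limma, where 1 had an unadjusted p below 0.05. Mean signal in CYP71B ran from 3.56 to 7.40 in the mutant and from 3.51 to 8.11 in Col-0, while in the other 4 genes it ran from 3.74 to 6.82 in the mutant and from 3.84 to 5.16 in Col-0. Each probe set binds with its own strength, so these are ranges of array signal and not an order of transcript amount. The medians of the CYP71B means, 4.84 in the mutant and 4.91 in Col-0, were close to those of all probe sets, 4.75 in both.

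CYP71B36 (AT3G26320) had the largest rise of the subfamily. Its log2 signal was 6.15, 6.11 and 5.48 in the mutant arrays, against 4.26, 4.25 and 4.32 in the Col-0 arrays. The Col-0 arrays were tightly grouped near the bottom of the signal range, and mutant replicate 3 was lower than the other two but still well above them. The log2 difference was 1.63 (SE 0.16, limma adjusted p = 3.40e-05).

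CYP71B26 (AT3G26290) had 7.16, 7.16 and 6.91 in the mutant arrays, against 5.78, 5.87 and 5.97 in the Col-0 arrays. Its log2 difference was 1.20 (SE 0.10, limma adjusted p = 1.41e-05), higher in 3 of 3 mutant arrays. CYP71B23 (AT3G26210) had 6.22, 6.18 and 6.10 in the mutant arrays, against 4.77, 5.17 and 5.39 in the Col-0 arrays. The spread of CYP71B23 lay on the Col-0 side, where the SD was 0.31, beside 0.06 in the mutant. Its log2 difference was 1.06 (SE 0.14, limma adjusted p = 0.000276), and without Col-0 replicate 1, its lowest array, it was 0.89 and still passed.

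CYP71B6 (AT2G24180), which oxidises indole-3-acetonitrile towards indole-3-carboxylic acid in indole defence metabolism, had the largest fall. Its log2 signal was 7.16, 7.10 and 7.05 in the mutant arrays, against 8.18, 8.12 and 8.04 in the Col-0 arrays. No mutant array came near the Col-0 arrays, and the spread within each genotype was small. The log2 difference was -1.01 (SE 0.09, limma adjusted p = 1.49e-05). It had the highest mean signal of the 22 genes, at the 81.0th percentile of all probe sets.

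The other falls were smaller. CYP71B22 (AT3G26200) had 4.96, 4.84 and 4.87 in the mutant arrays, against 5.40, 5.54 and 5.56 in the Col-0 arrays, a log2 difference of -0.61 (SE 0.09, limma adjusted p = 0.000545). CYP71B29 (AT1G13100) had 4.74, 4.84 and 4.79 in the mutant arrays, against 5.12, 5.36 and 5.12 in the Col-0 arrays, a log2 difference of -0.41 (SE 0.10, limma adjusted p = 0.00901). In both genes the genotypes did not overlap, and both passed limma with each array left out in turn.

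CYP71B28 (AT1G13090) had 7.43, 7.31 and 7.47 in the mutant arrays, against 7.61, 7.87 and 7.92 in the Col-0 arrays, a log2 difference of -0.40 (SE 0.11, limma adjusted p = 0.0173). It no longer passed without Col-0 replicate 2 (adjusted p = 0.0707), Col-0 replicate 3 (0.0761) or mutant replicate 2 (0.0694). CYP71B5 (AT3G53280) had 5.57, 5.47 and 5.49 in the mutant arrays, against 5.64, 6.14 and 5.86 in the Col-0 arrays, a log2 difference of -0.37 (SE 0.12). Its limma adjusted p of 0.0486 was just under the threshold and ran from 0.0105 to 0.178 over the alternatives, so the call for CYP71B5 rests on the choice of arrays and prior. It passed without Col-0 replicate 1 and with no other array left out.

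CYP71B34 (AT3G26300) lay on the other side of the threshold. Its log2 signal was 6.09, 5.53 and 5.68 in the mutant arrays, against 5.85, 6.17 and 6.26 in the Col-0 arrays. Mutant replicate 1, the array with the low ribosomal RNA control, overlapped the Col-0 arrays, and the log2 difference was -0.33 (95% interval -0.67 to 0.02, limma adjusted p = 0.161). Without that array it was -0.49 and passed (limma adjusted p = 0.0201), whereas without mutant replicate 2 it was -0.21 (adjusted p = 0.457) and without Col-0 replicate 3 it was -0.24 (0.406).

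For 3 more CYP71B genes the interval of the difference included 0. CYP71B35 (AT3G26310) had 5.23 ± 0.08 in the mutant and 5.22 ± 0.03 in Col-0, with a 95% interval of the log2 difference from -0.18 to 0.21. CYP71B24 (AT3G26230) had 4.72 ± 0.13 in the mutant and 4.71 ± 0.25 in Col-0 (SD, n = 3 each), with an interval from -0.28 to 0.29. Differences in signal as large as those of CYP71B22 or CYP71B6 lay outside the intervals of CYP71B35 and CYP71B24. CYP71B38 (AT3G44250), at 4.15 ± 0.12 in the mutant and 4.26 ± 0.07 in Col-0, had an interval from -0.33 to 0.10, but its signal was low, at the 37.5th percentile, so the arrays give little information on its transcript.

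The remaining 6 CYP71B genes, CYP71B16, CYP71B21, CYP71B25, CYP71B27, CYP71B31 and CYP71B37, were dim. Together with CYP51G2 and CYP79A2 they made up the 8 of 22 P450 genes with a mean signal among the lowest 30% of probe sets, and none of the 8 passed limma or had an unadjusted p below 0.05. In that part of the array 1.70% of all probe sets passed. CYP71B31, which with CYP76C3 oxidises linalool in flowers, had 3.56 ± 0.03 in the mutant and 3.53 ± 0.13 in Col-0 (SD, n = 3 each). CYP71B37 had the lowest mean signal of the 22, at the 2.51st percentile. At such signals a gene that did not pass may still differ in transcript amount.

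All 9 changed genes were among the 14 with a signal above that limit, where 40.2% of all probe sets passed. None of the 14 lay above the limit through 1 genotype alone, since each genotype's mean was above it: the lowest were CYP78A9 in Col-0 (4.095) and CYP71B38 in the mutant (4.15). CYP71B25 had a mean of 4.02 and fell just under the limit. Col-0 replicate 1 was the lowest Col-0 array in 10 of the 14 genes, beside 40.6% of all probe sets of such signal, and mutant replicate 1 was the highest mutant array in 8 of the 14, beside 43.9%. The part of these single arrays in the smaller differences was not tested beyond leaving each out.

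**Figure D3:**
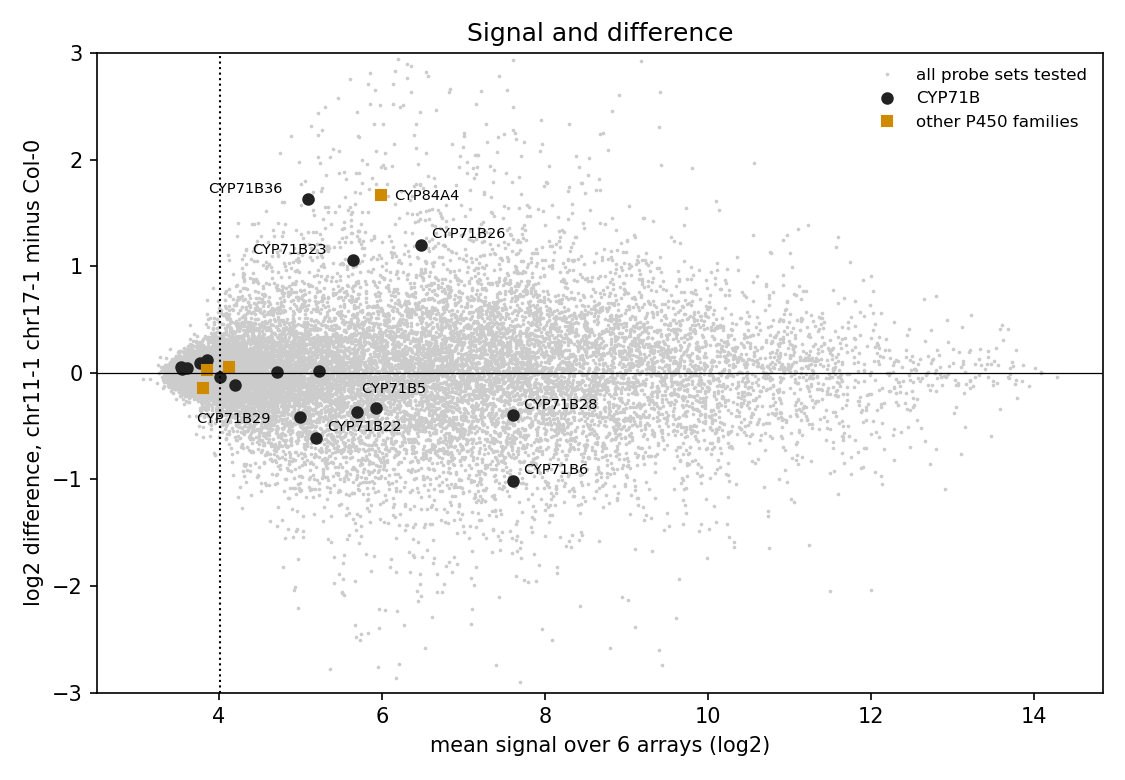
Mean signal over 6 arrays (log2) against log2 difference, mutant minus Col-0, for all probe sets tested (grey; 51 with a difference beyond 3 are outside the plotted range), CYP71B genes (black circles) and other P450 genes (orange squares); the dotted line is the limit of the lowest 30% of probe sets. The 9 named genes passed the test and lie to the right of that line, and the genes to its left lie near 0.

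Most of the measured CYP71B genes lie in tandem clusters. On chromosome 3 the gene table places 25 genes from CYP71B16 (AT3G26150) to CYP71B37 (AT3G26330), of which 18 are CYP71B genes, 2 of them annotated as pseudogenes, and 7 carry other names. Of the 18, 11 are members here. In this cluster 3 of 11 genes rose, 1 fell and 7 did not pass, with a median log2 difference of 0.05; 36.4% changed, beside 28.6% of all probe sets. Of the 7 CYP71B genes elsewhere none rose (beside 14.0% of all probe sets) and 4 fell (57.1%, beside 14.7%) under limma, with a median log2 difference of -0.37, and 4 had an unadjusted p below 0.05. Among these falls, those of CYP71B28 and CYP71B5 did not pass with every array left out in turn. CYP71B27 and CYP71B31, also outside the cluster, were among the lowest 30% of signal. The difference between the cluster and the other CYP71B genes was not tested.

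Genes that passed and genes that did not were interspersed among the measured genes of the cluster, and no test of position was made. CYP71B16, CYP71B21, CYP71B25 and CYP71B37 were among the lowest 30% of signal, so that they did not pass says little about their transcripts. CYP71B22 and CYP71B23 are next to each other, and the fall of CYP71B22 (-0.61) and the rise of CYP71B23 (1.06) went in opposite directions, each past the test. CYP71B35 and CYP71B36 also stand side by side, with log2 differences of 0.02 and 1.63; CYP71B37, on the other side of CYP71B36, was too dim to compare. CYP71B34 (-0.33), which follows CYP71B26 (1.20) with 1 gene between, did not pass, nor did CYP71B24 (0.0045), which follows CYP71B23 with 1 gene between. A probe set shared by CYP71B19 and CYP71B20, which the rule leaves out because it cannot tell them apart, read 8.02 ± 0.03 in the mutant and 8.09 ± 0.05 in Col-0 (SD, n = 3; limma adjusted p = 0.647).

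On chromosome 1 the neighbours CYP71B28 and CYP71B29 fell by nearly the same amount, 0.40 and 0.41 on the log2 scale, while CYP71B27 (AT1G13070), with 2 genes between, was dim and had a difference of 0.12. In all there were 9 pairs of members with at most 1 gene between them. Both genes passed in the same direction in 1 pair, in opposite directions in 1 pair, 1 gene of the pair passed in 6 pairs, and neither passed in 1. In 3 of the 6 the gene that did not pass was among the lowest 30% of signal, where 1.70% of all probe sets passed, so these 3 pairs say little about whether neighbours changed together. Tandem copies can share sequence, and although all 22 probe sets carry the plain suffix that marks no predicted cross-hybridisation, signal from a close copy was not tested here.

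The genes around the chromosome 3 cluster were read as well. Of the 10 nearest measured genes with a name on each side, 1 rose, 2 fell and 17 of the 20 did not pass, where 28.6% of all probe sets passed. Many of the 20 were among the lowest 30% of signal, where 1.70% of all probe sets passed. That such genes did not pass says little about their transcripts. AT3G26070 before the cluster fell by 0.84 and AT3G26450 after it fell by 0.82 on the log2 scale. The probe set of AT3G26070 carries a cross-hybridisation suffix, so its signal may include other genes. AT3G26460, next to AT3G26450, rose by 0.47. It was dim, among the lowest 30% of signal, with 4.24 ± 0.15 in the mutant and 3.76 ± 0.03 in Col-0 (SD, n = 3 each). The median log2 difference of the 20 was 0.03, and no difference among them reached the size of the 3 rises within the cluster. The falls of AT3G26070 and AT3G26450 were larger than that of CYP71B22 (-0.61), the only fall within the cluster.

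**Figure D4:**
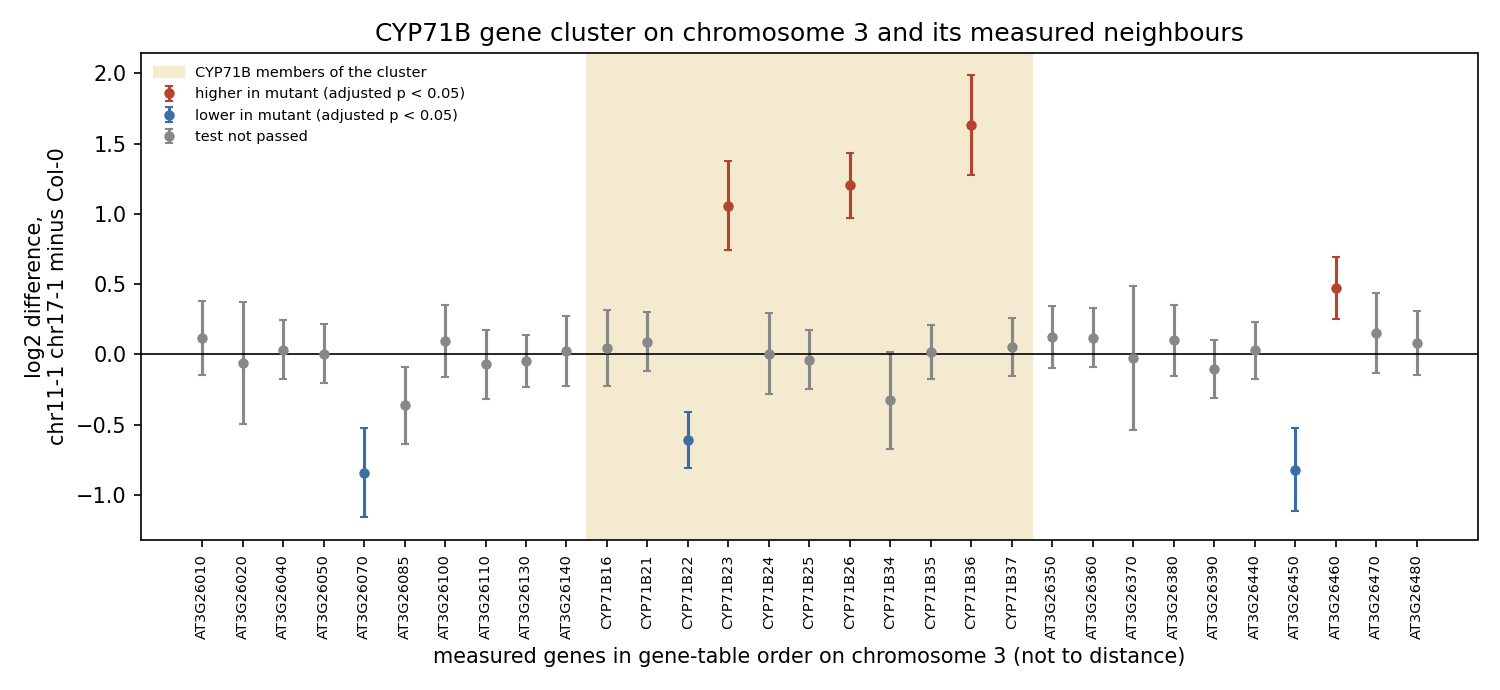
Log2 difference, mutant minus Col-0, with limma's 95% interval for the measured and named genes of the chromosome 3 cluster (shaded) and the 10 on each side, in gene-table order and not to distance. CYP71B23, CYP71B26 and CYP71B36 stand above their neighbours, and CYP71B22 lies below 0 beside CYP71B23.

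Of 86 P450 symbols in 13 lists by pathway, 6 were measured here, and 7 lists, among them brassinosteroids, gibberellins, abscisic acid breakdown, cytokinins, surface lipids and carotenoids, had none. The measured ones were CYP84A4 (phenylpropanoids, rose), CYP71B6 (indole defence, fell), and CYP79A2, CYP51G2, CYP71B31 and CYP78A9, which did not pass. None of the 11 listed P450 reductase and cytochrome b5 genes, the electron donors of P450s, had a named probe set here.

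Of 108 symbols for other enzymes of the same pathways 8 were measured, and 4 rose (beside 14.0% of all probe sets), 1 fell (beside 14.7%) and 3 did not pass. In phenylpropanoid synthesis, the pathway of CYP84A4, 3 of 23 listed genes were measured and all 3 passed, in both directions. HCT, which makes the shikimate esters on the way to lignin, fell, with 8.96 ± 0.20 in the mutant and 9.48 ± 0.09 in Col-0 (SD, n = 3; log2 difference -0.51, SE 0.11, limma adjusted p = 0.00617). CCR2, a cinnamoyl-CoA reductase, was dim, among the lowest 30% of probe sets by signal. It rose by 0.31 (limma adjusted p = 0.0276, 0.0143 to 0.110 over the alternatives), with 4.05 ± 0.04 in the mutant and 3.74 ± 0.10 in Col-0. DFR, a flavonoid enzyme, rose by 0.39 (limma adjusted p = 0.0321, 0.00721 to 0.132 over the alternatives). The signal of DFR was also low, at the 39.1th percentile, with 4.45 ± 0.12 in the mutant and 4.05 ± 0.21 in Col-0 (SD, n = 3 each). CCR2 no longer passed without Col-0 replicate 1 or 2 or without mutant replicate 2 or 3, and DFR not without Col-0 replicate 2 or 3 or mutant replicate 2 or 3 (limma adjusted p = 0.0554 to 0.132 for these).

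In glucosinolate synthesis BCAT4, which starts the chain elongation of methionine, rose, with 11.33 ± 0.07 in the mutant and 10.20 ± 0.13 in Col-0 (SD, n = 3; log2 difference 1.13, SE 0.10, limma adjusted p = 1.44e-05). GSTU20 (0.25), UGT74B1 (0.44) and AOP3 (0.07) of the same pathway did not pass. WSD1, a wax ester synthase and the single surface lipid enzyme measured, rose by 0.61 (SE 0.18, limma adjusted p = 0.0307), with 5.29 ± 0.41 in the mutant and 4.69 ± 0.21 in Col-0 (SD, n = 3). WSD1 no longer passed without replicate 1 or 2 of either genotype, where its limma adjusted p was 0.0524 to 0.108. With so few members measured, these lists show single genes and no pathway as a whole.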

How the data were processed

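Values were used as the authors deposited them, on a log2 scale with 1 value per probe set and array. Per the submitters' processing notes, RMA and Partek were used; their roles, order and versions, and the settings for background and normalization, are not given in the sources. After leaving out 64 controls, 22746 probe sets were fitted with limma 3.58.1 in R 4.3.3 (lmFit, eBayes, two-sided), mutant minus Col-0, with Benjamini-Hochberg adjustment over all of them and a threshold of 0.05. The step was also run on simulated data with 200 changed probe sets. In the real data 6511 passed, so that run does not check the calls given here. Further steps used Python 3.11.15 with pandas 2.3.3, scipy 1.17.1 and matplotlib 3.10.9. The number of arrays limits the precision.

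Of the probe sets, 13513 have 1 gene name, 503 several and 8730 none in the probe table. Locus codes and gene order came from the TAIR10.1 gene table, in which all 22 members were found. No build is named for the probe annotation, so no coordinates are printed.

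Members, gene lists and the rule for named genes were chosen with earlier results of these data known. The rule takes the 12 largest rises and falls, all CYP71B genes, pathway list members, the highest and lowest signal, changed neighbours and up to 4 other enzymes per list. The genes around the chromosome 3 cluster, GSTU20, UGT74B1, AOP3 and the marker genes were added after their values were seen. Alternatives were quantile normalization, median centring, leaving out the lowest 30% of probe sets or cross-hybridisation suffixes, array weights, a trended robust prior, a replicate block, fits without each array in turn, a threshold of 0.01, averaging probe sets per gene and members by synonym.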

Additional observations from a re-analysis of the deposited data

How the results depend on the processing

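The 4 rises stayed past the test in all 13 refits with other settings or arrays, and so did the falls of CYP71B6, CYP71B22 and CYP71B29. The count of falls was 5, and 3 to 5 with single arrays left out. It was 6 with array weights, 4 with the trended robust prior and 3 at an adjusted p of 0.01. The counts for CYP71B were the same, since every fall was in CYP71B. The single 2-fold fall, CYP71B6, ranged over counts of 0 to 1 with arrays left out, as its difference was 0.98 to 1.05 in size. The count of 2-fold rises was 4, and 3 without Col-0 replicate 1 or with array weights, where CYP71B23 had 0.89 and 0.99. Leaving out the lowest 30% of probe sets leaves 14 members, whose median log2 difference was -0.055, and 12 CYP71B genes, whose median was -0.22; the dropped genes lie near 0.

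Deviations from the genotype mean correlated at -0.30 to -0.17 for same-numbered arrays of the 2 genotypes and at -0.043 to 0.18 for differently numbered ones. With 3 arrays the deviations within a genotype are tied to each other, so these values cannot show whether arrays were paired. With the replicate block 8 of the 9 calls remained, 4 higher and 4 lower, and CYP71B5 had a limma adjusted p of 0.0796. CCR2 and DFR no longer passed there either (limma adjusted p = 0.0763 and 0.0751). Of 278 values of members in refits, 253 had the sign and call of the report, 10 no longer passed, 2 passed there alone (CYP71B34 both times; -0.44 with array weights) and 13 changed sign, all of genes that had not passed. With array weights CYP71B24 had -0.060 and CYP71B35 -0.0045. With single arrays left out, the differences of these genes ran from -0.044 to 0.10 for CYP51G2, from -0.031 to 0.15 for CYP71B16, from -0.13 to 0.10 for CYP71B24, from -0.086 to 0.022 for CYP71B25, from -0.018 to 0.062 for CYP71B35, from -0.032 to 0.096 for CYP71B31 and from -0.0023 to 0.12 for CYP78A9. The causes were not tested. Each member has 1 probe set and no further measured gene has a matching synonym, so those alternatives change nothing. Dim probe sets limit what 8 of the 22 genes can show.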
